A study of Homo sapiens with 10 samples.

Results

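The 38 protein-coding HOX genes of the HOXA, HOXB, HOXC and HOXD clusters were examined for H3K27ac and H3K18ac in 2 prostate cancer cell lines. They were taken by symbol from GENCODE release 44, which holds 20033 protein-coding genes, with the HOXB members limited to HOXB1 to HOXB9. The HOXA cluster gave 11 members on chromosome 7, and 9 members each came from HOXB on chromosome 17, HOXC4 to HOXC13 on chromosome 12 and HOXD1 to HOXD13 on chromosome 2. The series profiled both acetylated histones by ChIP-Seq, which sequences the DNA bound to a modified histone pulled down with an antibody, in C4-2B and C4-2BER. C4-2B cells come from a prostate adenocarcinoma that grows after castration, and C4-2BER was derived from them under continuous enzalutamide, a drug against prostate cancer, in which the study keeps it. The comparison asks how histone acetylation differs between the resistant, neuroendocrine-like line and its parent. Each mark had 2 libraries per cell line, beside 1 input library per cell line, and the authors merged the 2 libraries before calling peaks. Each of the 4 peak lists is therefore 1 value per place with no replicate error, so no test was possible and every difference given here is a description of these pooled libraries. C4-2BER is a single derived line, so its drug, its derivation and its libraries cannot be told apart as sources of a difference.

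HOX genes encode homeodomain transcription factors that give cells their position along the body axis. Genes of a cluster lie in the order of the regions they pattern, with low paralog numbers used towards the head and high numbers towards the tail. Polycomb complexes keep unused HOX genes silent by methylating H3K27, the same lysine that is acetylated at active promoters and enhancers. The posterior HOX genes take part in the development of the urogenital tract, the prostate included.

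Each gene was given the fold enrichment, that is ChIP signal over local background, of the strongest peak within 1000 bp of its canonical transcription start site (TSS). The peak caller gives a broad peak 1 fold enrichment averaged over the peak, so genes under the same peak share a value. All coordinates are of GRCh38, and each peak lay within the chromosome lengths of that build. The lists held 68034 H3K27ac peaks in C4-2B and 72971 in C4-2BER, and 198451 and 197948 H3K18ac peaks. Read counts are not part of them, so depth is unknown, and a gene without a peak may still carry the mark. The luminal prostate markers KLK2, KLK3, TMPRSS2, FOLH1, KRT8 and KRT18 each carried H3K27ac and H3K18ac peaks in C4-2B and in C4-2BER, with KLK3 at an H3K27ac fold enrichment of 20.3 in C4-2B and 13.8 in C4-2BER. Of the neuroendocrine markers, ENO2 had H3K27ac of 4.00 and 7.30 and SYP had 8.16 and 5.67. CHGA, INSM1, NCAM1 and NEUROD1 had no H3K27ac peak in either cell line.

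H3K27ac lay at fewer of the HOX genes than H3K18ac, and its place differed between the clusters. An H3K27ac peak was found at 24 of the 38 members in C4-2B (63.2%) and at 24 in C4-2BER, beside 69.1% and 69.6% of all protein-coding genes. H3K18ac was found at 37 members in C4-2B (97.4%) and 34 in C4-2BER (89.5%), beside 83.8% and 81.1% of all genes. Members with H3K18ac but no H3K27ac numbered 13 in C4-2B (34.2%) and 10 in C4-2BER (26.3%), a state found at 15.1% and 12.0% of all genes. Members share peaks, so these counts are not independent, and the 24 H3K27ac values came from 23 peaks in C4-2B and 19 in C4-2BER. The 37 H3K18ac values of C4-2B came from 33 peaks and the 34 of C4-2BER from 24.

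**Figure D1:**
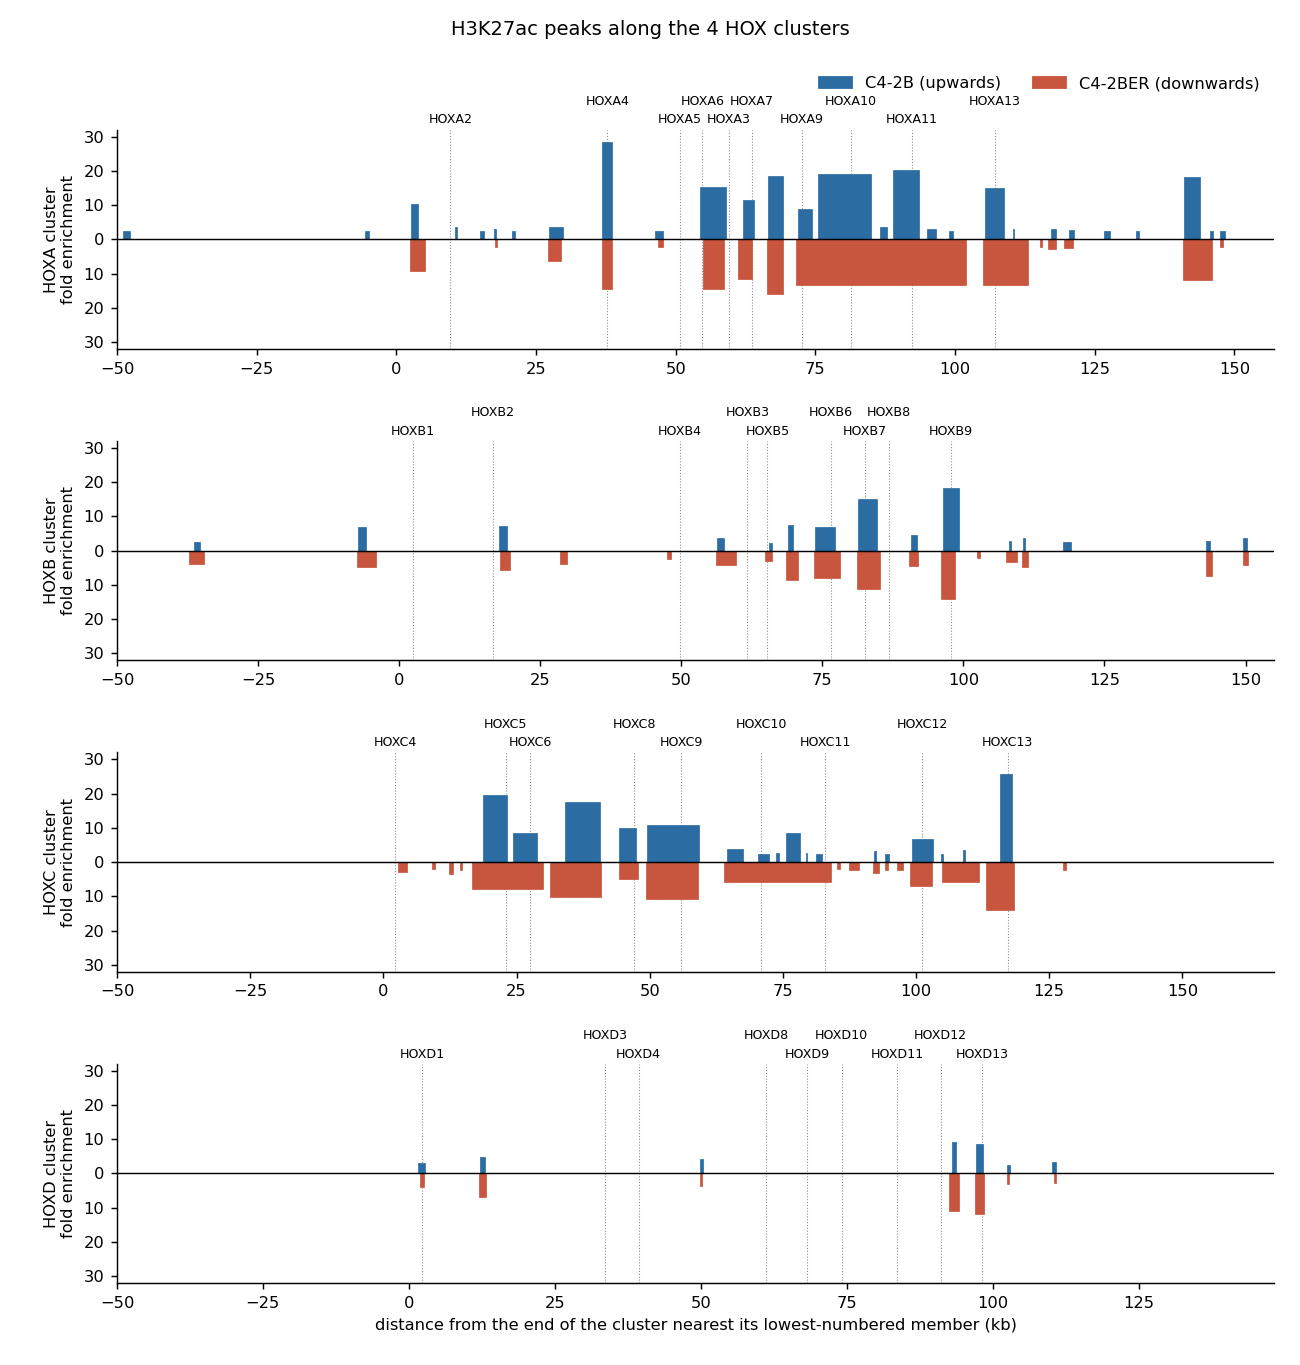
Peaks of H3K27ac along the HOXA, HOXB, HOXC and HOXD clusters with 50 kb to each side. The x axis gives the distance in kb from the end with the lowest-numbered member, bars span each peak, bar height is its fold enrichment (C4-2B upwards, C4-2BER downwards) and dotted lines mark the canonical TSSs of the genes named above them. The 30.5 kb peak of C4-2BER from HOXA9 to HOXA11 and the 20.1 kb peak over HOXC10 and HOXC11 stand below several separate C4-2B peaks, and the HOXD cluster is empty of H3K27ac between HOXD3 and HOXD12 except for 1 narrow peak in each cell line.

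By paralog number, H3K27ac was least frequent at the anterior genes, which pattern the hindbrain and its crest cells. Of 8 anterior members (paralogs 1 to 3), 4 had an H3K27ac peak in C4-2B and 3 in C4-2BER. Of 15 central members (paralogs 4 to 8), which pattern the neck and thorax, 9 and 10 had one. Of 15 posterior members (paralogs 9 to 13), which act in the lumbosacral, limb and urogenital regions, 11 had one in each cell line. Over all protein-coding genes the shares were 69.1% in C4-2B and 69.6% in C4-2BER. The classes hold few genes, and HOXA3 counts through the peak it shares with HOXA6. HOXC has no anterior member, so paralog class and cluster were not separated. Paralogs 6, 7 and 13 were the groups in which each gene had an H3K27ac peak in both cell lines. Where members had a peak, it was lower than at most genes with one. Their median H3K27ac fold enrichment was 10.6 in C4-2B and 10.99 in C4-2BER, beside 18.2 and 12.4 over all genes with a peak, and 6 and 9 of the 24 members lay above that gene median. For H3K18ac the medians were 4.98 and 4.56 at the members and 7.00 and 5.59 over all genes.

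**Figure D2:**
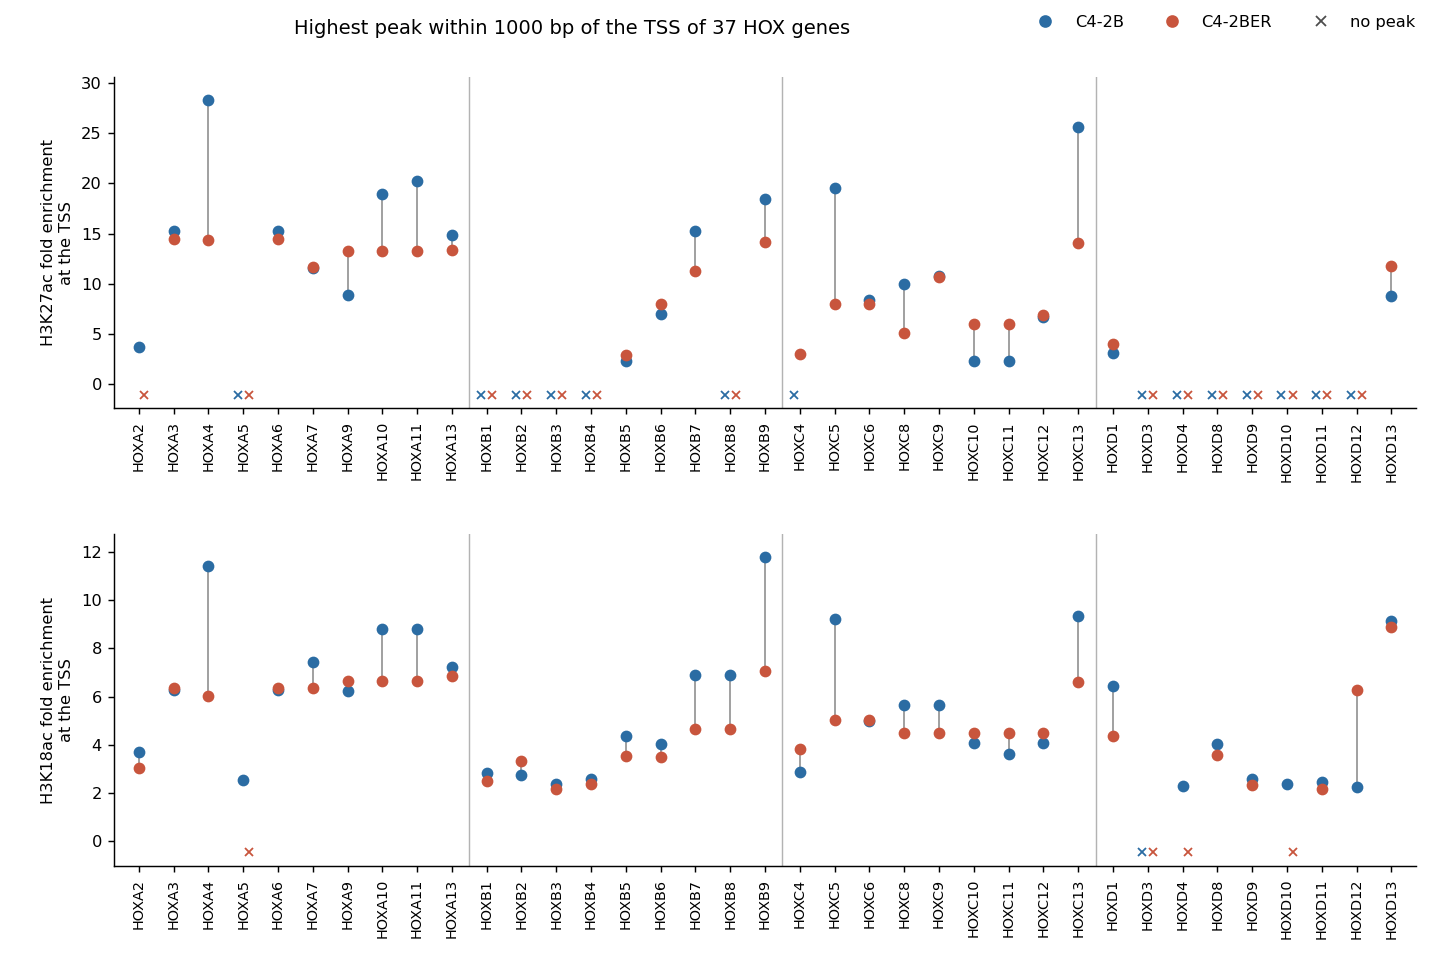
Fold enrichment of the highest peak within 1000 bp of the TSS of 37 of the 38 HOX genes, for H3K27ac (upper) and H3K18ac (lower). Points are the 1 merged list of each cell line (C4-2B blue, C4-2BER red), lines join the cell lines, crosses mark no peak and vertical lines separate the clusters. HOXA4, HOXC5 and HOXC13 show the longest falls in H3K27ac, HOXC10 and HOXC11 lie higher in C4-2BER, and 13 genes have no H3K27ac peak in either cell line.

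A gene was called higher where C4-2BER alone had a peak, or where its fold enrichment reached 2 times the C4-2B value, and lower in the mirrored case. For H3K27ac, 3 of the 38 members were called higher (HOXC4, HOXC10 and HOXC11), beside 3.31% of all protein-coding genes, and 2 were called lower (HOXA2 and HOXC5), beside 8.01%. The HOXC4 call was lost with a window of 500 bp, with all annotated TSSs, at fold enrichments from 3 upwards and where the peak had to cover the TSS. For H3K18ac, 1 was called higher (HOXD12), beside 2.10% of genes, and 3 were called lower (HOXA5, HOXD4 and HOXD10), beside 6.12%. Among the 13903 genes whose GC content at the TSS lay within the range of the members (49.6% to 67.9%), the shares were 3.14% and 9.44% for H3K27ac and 0.468% and 6.38% for H3K18ac. These counts of 1 to 3 genes are too few to be read against such shares. The fold enrichment fell at most genes of the genome between these lists, and the median fall over the HOX genes was smaller. The median log2 ratio of C4-2BER to C4-2B was −0.07 over the 23 members with H3K27ac in both cell lines and −0.51 over 13393 genes, and 17 of the 23 lay above the gene median. For H3K18ac it was −0.17 over 34 members and −0.34 over 15844 genes, with 25 of the 34 above the gene median. The members began lower in C4-2B than all genes with a peak, at a median of 10.6 beside 18.2 for H3K27ac. For H3K18ac these medians were 4.98 and 7.00. Starting values were not matched, so the smaller fall cannot be called particular to the HOX genes. Centred on the median of all genes, the members' medians turned to 0.44 for H3K27ac and 0.17 for H3K18ac, so the direction of the HOX genes as a group depends on the scaling of the lists.

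The sequences before the start sites of 6 members are shown as examples of genes with H3K27ac in both cell lines (HOXA4, HOXA9 and HOXD13), in C4-2B only (HOXA2) and in neither (HOXD4 and HOXD12). They were chosen, with their values known, from the 18 of the 38 members for which RefSeq (GRCh38.p14) gave a promoter at the canonical TSS, which lie in HOXA, HOXB and HOXD. Each line holds the 250 bases before the TSS, 5′ to 3′ on the strand of the gene, with CG dinucleotides, the target of DNA methylation and a feature of CpG-island promoters, in capitals.
HOXA2, chr7:27102684-27102933, minus strand: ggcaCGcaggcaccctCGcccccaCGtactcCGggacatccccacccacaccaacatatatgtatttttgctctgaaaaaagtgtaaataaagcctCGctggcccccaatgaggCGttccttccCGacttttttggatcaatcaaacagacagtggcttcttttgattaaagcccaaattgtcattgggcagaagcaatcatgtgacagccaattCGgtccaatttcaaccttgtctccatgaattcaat
HOXA4, chr7:27130758-27131007, minus strand: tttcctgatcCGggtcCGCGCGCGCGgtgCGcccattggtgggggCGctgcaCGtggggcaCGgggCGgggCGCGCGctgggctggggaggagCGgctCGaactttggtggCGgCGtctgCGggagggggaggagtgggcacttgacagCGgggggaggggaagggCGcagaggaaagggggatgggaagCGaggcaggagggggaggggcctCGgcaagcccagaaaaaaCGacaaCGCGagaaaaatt
HOXA9, chr7:27165538-27165787, minus strand: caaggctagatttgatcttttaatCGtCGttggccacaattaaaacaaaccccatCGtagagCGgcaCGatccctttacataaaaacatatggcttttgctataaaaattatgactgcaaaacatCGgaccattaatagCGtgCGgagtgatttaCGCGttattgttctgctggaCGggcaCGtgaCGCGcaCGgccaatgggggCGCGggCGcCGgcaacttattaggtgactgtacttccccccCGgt
HOXD4, chr2:176151300-176151549, plus strand: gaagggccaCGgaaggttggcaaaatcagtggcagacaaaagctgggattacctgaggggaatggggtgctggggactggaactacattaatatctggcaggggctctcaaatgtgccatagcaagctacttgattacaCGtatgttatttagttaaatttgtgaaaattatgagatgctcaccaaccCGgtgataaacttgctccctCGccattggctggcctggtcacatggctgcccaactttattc
HOXD12, chr2:176099545-176099794, plus strand: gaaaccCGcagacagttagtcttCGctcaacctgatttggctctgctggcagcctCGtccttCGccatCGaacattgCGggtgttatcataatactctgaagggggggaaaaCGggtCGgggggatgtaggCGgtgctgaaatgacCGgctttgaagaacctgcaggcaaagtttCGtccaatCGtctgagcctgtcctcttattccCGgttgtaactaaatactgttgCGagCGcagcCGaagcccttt
HOXD13, chr2:176092471-176092720, plus strand: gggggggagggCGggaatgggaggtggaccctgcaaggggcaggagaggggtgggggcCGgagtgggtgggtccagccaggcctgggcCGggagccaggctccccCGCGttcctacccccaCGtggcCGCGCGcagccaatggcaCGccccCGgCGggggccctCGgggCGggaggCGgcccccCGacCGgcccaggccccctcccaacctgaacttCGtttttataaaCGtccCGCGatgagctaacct
The HOXA4 promoter, under the highest H3K27ac peak of any member in C4-2B, held 26 CG dinucleotides. HOXA9 and HOXD13, which had H3K27ac in both cell lines, held 20 and 21. HOXA2, whose H3K27ac peak was absent from C4-2BER, held 8, and HOXD4, with no H3K27ac, held 4. The promoter of HOXD12 held 16. Over the 10 of these 18 promoters with H3K27ac in both cell lines the median was 25, over the 7 with H3K27ac in neither it was 21, and over 35097 promoters of the table it was 11. The ranges overlapped, at 11 to 40 and 4 to 28, so the CG count did not separate the HOX promoters with H3K27ac from those without. The same held for the GC content of the 2000 bp around the TSS. The 23 members with H3K27ac in both cell lines had a median of 60.0% (49.6% to 67.9%) and the 13 with none had 58.6% (50.6% to 67.7%). HOX proteins bind DNA together with PBX proteins, and TGATNNAT, a motif of such pairs searched on both strands, was matched in 3 of the 18 promoters (HOXA2, HOXB1 and HOXD11), and in 6.48% of the promoters of the table. A match is a run of letters and not a known site.

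In the HOXA cluster, whose genes pattern the hindbrain at one end and the limbs and urogenital tract at the other, H3K27ac coverage was uneven. Its peaks covered 89.0% of the stretch from HOXA6 to the canonical TSS of HOXA3 in C4-2B and 79.1% in C4-2BER. From HOXA9 to HOXA10 they covered 87.4% and 100%, and from HOXA10 to HOXA11 74.9% and 100%. Coverage was 36.5% and 79.2% from HOXA11 to HOXA13, and 18.6% and 12.3% from HOXA2 to HOXA4. HOXA2 had an H3K27ac fold enrichment of 3.63 in C4-2B, in a peak of 327 bp away from its TSS, and no peak in C4-2BER. HOXA4 had 28.4 in C4-2B and 14.4 in C4-2BER, and it was the highest HOXA member in C4-2B. Its log2 ratio of −0.98 lay just short of the ratio of 2. HOXA5 had no H3K27ac peak at its TSS in either cell line, although its neighbours HOXA4 and HOXA6 did. The canonical TSS of HOXA3 lies beyond HOXA6, and the 2 genes shared a peak of 15.2 in C4-2B and 14.5 in C4-2BER, the highest HOXA value there.

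HOXA9, HOXA10 and HOXA11 lay under 1 wide domain in C4-2BER, and HOXA13 under a separate peak. HOXA7 stood before it, with H3K27ac of 11.6 in C4-2B and 11.7 in C4-2BER. HOXA9, a posterior gene also known as a leukaemia oncogene, had 8.85 in C4-2B, HOXA10 had 19.0 and HOXA11 had 20.2, each in a peak of its own. In C4-2BER the 3 genes shared a peak of 30.5 kb (chr7:27164466-27194977) with a fold enrichment of 13.3. It was the 80th widest of the 72971 H3K27ac peaks of that list. Over the same bases C4-2B had 6 peaks that covered 20.3 kb (66.5%), with a mean fold enrichment by length of 15.0 and a range of 2.44 to 20.2. The log2 ratio of 0.58 at HOXA9 and the lower values at HOXA10 and HOXA11 thus came from 1 C4-2BER average set against 3 C4-2B peaks. The stretch from HOXA11 to HOXA13 was covered to 36.5% in C4-2B and 79.2% in C4-2BER. HOXA13, the last gene of the cluster, which acts in the genital tubercle and digits, had 14.9 and 13.3.

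H3K18ac also lay between the anterior HOXA genes, with a C4-2BER peak of 9.56 kb and 3.86 between HOXA2 and HOXA4. HOXA4 was highest in C4-2B, at 11.4, and had 6.03 in C4-2BER, a log2 ratio of −0.92 that made it the nearest H3K18ac value to the ratio of 2 among members not called lower. HOXA13 was highest in C4-2BER, at 6.84, with 7.21 in C4-2B. HOXA10 and HOXA11 shared a peak of 18.4 kb and 8.80 in C4-2B, and HOXA9 to HOXA11 shared one of 31.5 kb and 6.63 in C4-2BER. HOXA2, HOXA3, HOXA6, HOXA7 and HOXA9 ranged from 3.68 to 7.45 in C4-2B and from 3.05 to 6.63 in C4-2BER. HOXA5 had 2.54 in C4-2B and none in C4-2BER, since the C4-2BER peak nearby started at chr7:27144763, just past the window of its TSS at chr7:27143681. With a window of 2000 bp HOXA5 was called higher instead.

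The HOXB cluster carried H3K27ac mainly over its HOXB5 to HOXB9 end, and its anterior genes carried H3K18ac alone at their TSSs. HOXB1, HOXB2, HOXB3 and HOXB4, hindbrain and neck genes, had no H3K27ac peak in the TSS window in either cell line, nor did HOXB8. For HOXB2 this rests on the edge of the window. A peak upstream of it had 7.24 in C4-2B, 1192 bp from the TSS, and 5.63 in C4-2BER, 1256 bp away. HOXB5 had 2.27 in C4-2B and 2.90 in C4-2BER, and HOXB6 had 7.00 and 7.94. HOXB7 had 15.2 and 11.3. HOXB9 had 18.4 and 14.1, the highest HOXB values in each cell line. No HOXB gene was called higher or lower in either mark. The order of H3K18ac along the cluster was alike. HOXB1 to HOXB4 had 2.37 to 2.84 in C4-2B and 2.17 to 3.33 in C4-2BER, and HOXB5 and HOXB6 had 4.04 to 4.38 and 3.50 to 3.52. The C4-2B range leaves out an H3K18ac peak of 5.055 that lay 1327 bp from the TSS of HOXB2, outside the window. HOXB7 and HOXB8 shared a peak in both cell lines, with 6.91 in C4-2B and 4.65 in C4-2BER, and HOXB9 was highest with 11.8 and 7.06.

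Between the anterior HOXB genes, H3K27ac covered more bases in C4-2BER from HOXB2 onwards, and none from HOXB1 to HOXB2 in either cell line. The stretch from HOXB2 to HOXB4 was covered to 3.82% in C4-2B and 12.0% in C4-2BER, and the stretch from HOXB4 to the canonical TSS of HOXB3 to 10.3% and 29.6%. The C4-2BER peaks there had fold enrichments of 2.37 to 5.63. The highest, upstream of HOXB2, was wider but lower than the C4-2B peak at the same place, which had 7.24. The peak between HOXB4 and HOXB3 had 3.78 in C4-2B and 4.27 in C4-2BER. Those of 3.99 and 2.37 had no C4-2B peak at the same place. With a TSS window of 2000 bp, HOXB3, HOXB4 and HOXB8 joined the members called higher in H3K27ac, beside 3.53% of all genes under that window.

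In the HOXC cluster, H3K27ac covered more bases in C4-2BER in each of the 8 stretches between neighbouring TSSs, while the strongest promoters were lower there. HOXC13, the posterior end of the cluster and a regulator of hair and nail keratins, had the highest value in both cell lines, with 25.7 in C4-2B and 14.1 in C4-2BER. HOXC12 had 6.67 and 6.86. HOXC11 had 2.31 in C4-2B and 5.95 in C4-2BER, and HOXC10, which acts in lumbar motor neurons, had 2.25 and 5.95, with log2 ratios of 1.37 and 1.40. These 2 genes shared a C4-2BER peak of 20.1 kb (chr12:53972039-53992092), where C4-2B had 6 peaks over 9.63 kb (48.0%). The mean fold enrichment by length in those C4-2B peaks was 4.41 and their range 2.25 to 8.54. The strongest of them lay between HOXC11 and HOXC10, outside both TSS windows.

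HOXC9, a thoracic gene that represses limb motor programmes, had 10.7 in both cell lines. HOXC8 had 10.0 in C4-2B and 5.03 in C4-2BER, a log2 ratio of −0.99, the nearest to the ratio of 2 among members not called. HOXC6 had 8.41 and 7.97. HOXC5 had 19.6 in C4-2B and 7.97 in C4-2BER, a log2 ratio of −1.30, and was called lower. In C4-2BER, HOXC5 and HOXC6 shared a peak of 13.3 kb, over which C4-2B had 2 peaks on 67.1% of the bases with a mean of 13.9. Centred on the median of all genes, the log2 ratio of HOXC5 was −0.79 and no longer past the ratio of 2. HOXC4, the most anterior HOXC gene, had no peak in C4-2B and 2.93 in C4-2BER, in a weak peak of 1554 bp that did not cover its canonical TSS.

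Without flanks, H3K18ac covered 69.6% of the HOXC cluster in C4-2B, in 20 peaks, and 92.6% in C4-2BER, in 5 peaks. A C4-2BER peak of 67.7 kb (chr12:53944102-54011836) held the TSSs of HOXC8, HOXC9, HOXC10, HOXC11 and HOXC12, with a fold enrichment of 4.48. It was the 11th widest of the 197948 peaks of its list. C4-2B had 10 peaks on 80.9% of these bases with a mean fold enrichment of 4.46. The C4-2B mean leaves out the bases between its peaks, so the 2 means are not over the same bases. HOXC13 was again the highest, with 9.33 in C4-2B and 6.61 in C4-2BER, and HOXC5 had 9.21 and 5.04. HOXC4 had 2.85 and 3.83, HOXC6 had 4.98 and 5.04, and HOXC8 to HOXC12 had 3.63 to 5.63 in C4-2B. No HOXC gene was called in H3K18ac, with log2 ratios between −0.87 and 0.42.

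The HOXD cluster, which patterns limbs and genitalia, was nearly free of H3K27ac. HOXD13, at its posterior end, had 8.72 in C4-2B and 11.8 in C4-2BER, and HOXD1, at the other end, had 3.05 and 3.93. HOXD3, HOXD4, HOXD8, HOXD9, HOXD10, HOXD11 and HOXD12 had no H3K27ac peak at the TSS in either cell line. A peak between HOXD13 and HOXD12 had 9.11 in C4-2B and 10.9 in C4-2BER (chr2:176096741-176098327), and one at HAGLROS, a noncoding RNA between HOXD3 and HOXD1, had 4.78 and 6.97. Each cell line had 7 H3K27ac peaks in the HOXD window, at the same places, and 5 were higher in C4-2BER. The other 2 were lower, with 4.196 in C4-2B and 3.71 in C4-2BER between HOXD8 and HOXD4, and 3.43 and 2.88 at EVX2. In the HOXD window the mean fold enrichment by length was 5.36 in C4-2B and 8.10 in C4-2BER, a ratio of 1.51. The same ratio was 0.958 for HOXA, 0.761 for HOXB, 0.679 for HOXC and 0.765 over the whole lists. These means weight each peak by its length, and no single HOXD peak rose by that much. The strong peak between HOXD13 and HOXD12 spanned 584 bp in C4-2B and 1587 bp in C4-2BER, and the weaker one at HOXD1 spanned 1201 and 704 bp.

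H3K18ac lay at 8 of 9 HOXD genes in C4-2B and 6 in C4-2BER. HOXD13 had 9.15 and 8.88, the latter the highest H3K18ac value of the 38 members in C4-2BER, and HOXD1 had 6.42 and 4.35. HOXD8 had 4.02 and 3.57, HOXD9 had 2.58 and 2.32, and HOXD11 had 2.44 and 2.17. HOXD4 had 2.27 in C4-2B, HOXD10 had 2.36, and neither had a peak in C4-2BER, while HOXD3 had none in either. The C4-2B peaks at HOXD4 and HOXD10 passed neither a −log10 q-value of 5 nor a fold enrichment of 3. HOXD12 had 2.26 in C4-2B and 6.26 in C4-2BER, a log2 ratio of 1.47. That rise rests on the edge of the window. The peak upstream of HOXD12 ended at chr2:176098780 in C4-2B, with a fold enrichment of 5.28, and at chr2:176098796 in C4-2BER, and only the second reached the window of the TSS at chr2:176099795. With a window of 2000 bp the log2 ratio was 0.25, and with 500 bp HOXD12 was called lower instead, with a peak in C4-2B only. It was not called where the peak had to cover the TSS.

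**Figure D3:**
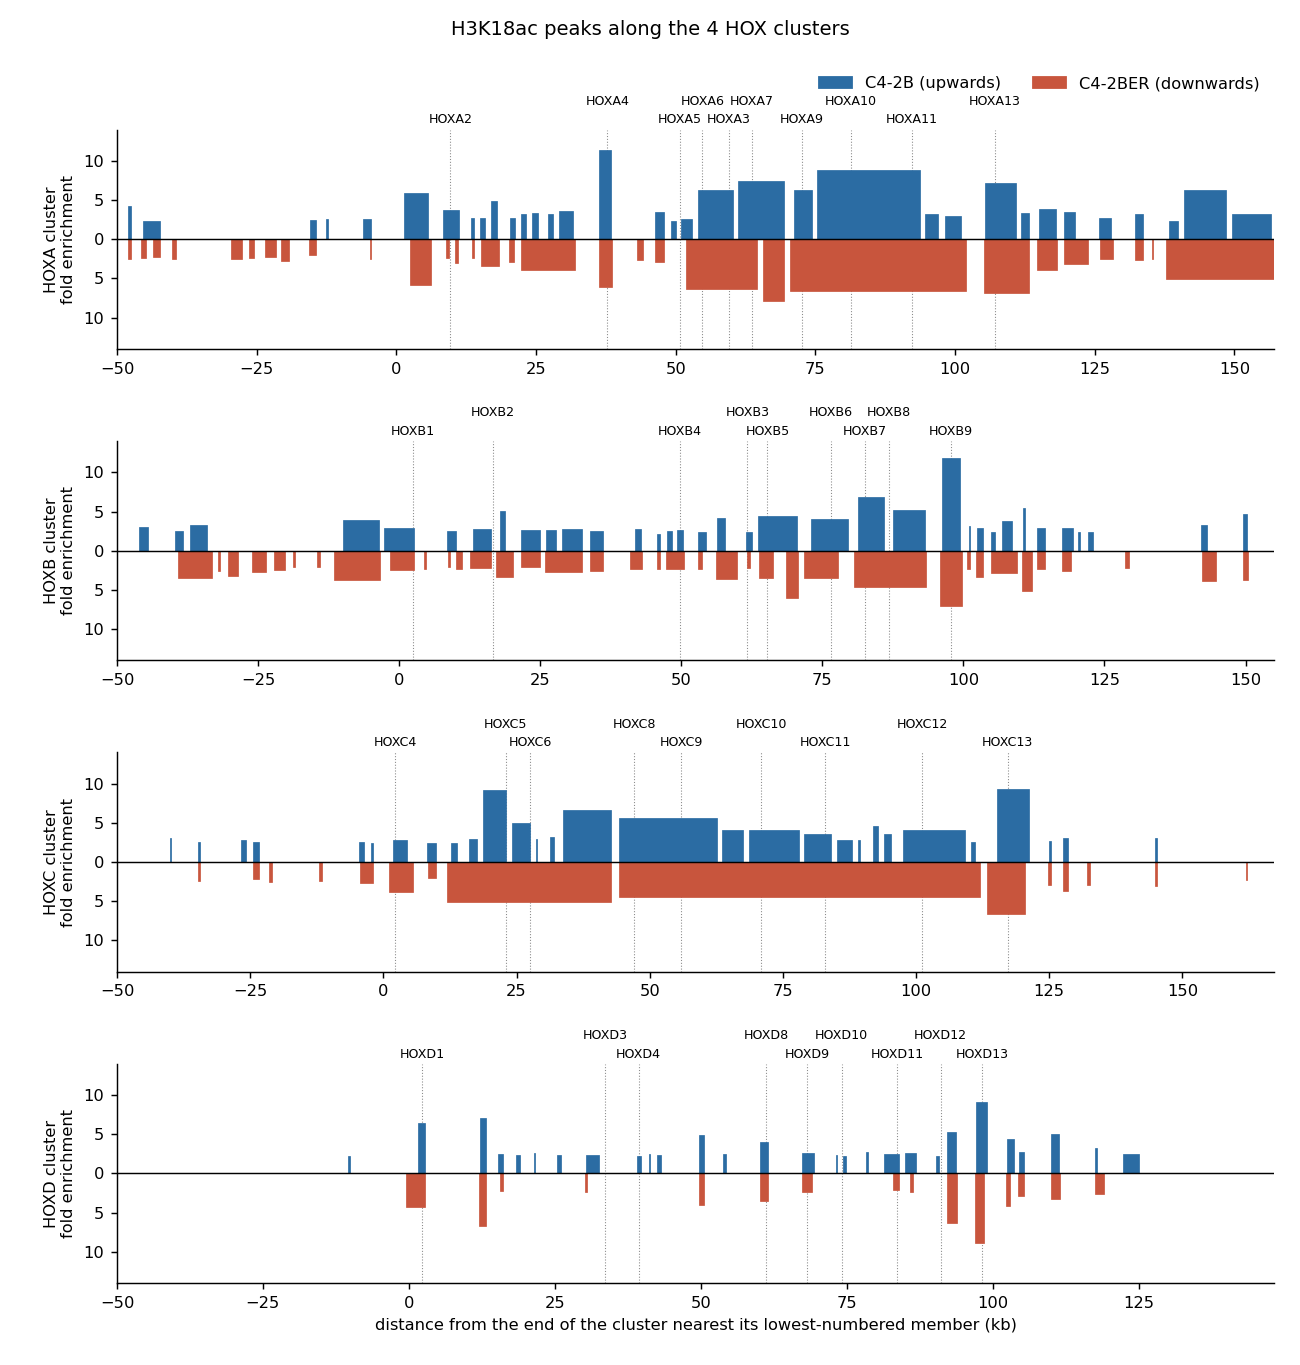
Peaks of H3K18ac along the 4 HOX clusters, drawn as for H3K27ac with the distance in kb on the x axis and the fold enrichment of each peak on the y axis (C4-2B upwards, C4-2BER downwards). In C4-2BER a peak of 67.7 kb and one of 30.8 kb span most of the HOXC cluster, and in the HOXD window with its flanks C4-2B has 28 peaks and C4-2BER 15.

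The covered length tells the clusters apart more than the TSS values do. With 50 kb to each side, H3K27ac covered 51.9 kb of HOXA in C4-2B and 65.0 kb in C4-2BER, a ratio of 1.25 beside 1.24 over the whole lists. In HOXB it covered 21.2 and 34.7 kb, a ratio of 1.64, and in HOXC 46.1 and 81.8 kb, a ratio of 1.78. HOXD had 5.41 and 6.08 kb, a ratio of 1.12. HOXA was thus close to the whole lists, and HOXB and HOXC lay above them. Of the C4-2B bases of H3K27ac in HOXC, 98.8% were also covered in C4-2BER, which added 36.3 kb. The number of H3K27ac peaks in HOXA was 28 in C4-2B and 15 in C4-2BER. Of the 28, 10 lay under 3 joined C4-2BER peaks and 7 overlapped no C4-2BER peak.

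H3K18ac covered 101.6 kb of HOXA in C4-2B and 122.5 kb in C4-2BER, 79.0 and 98.8 kb of HOXB, and 91.5 and 119.4 kb of HOXC. The ratios were 1.21, 1.25 and 1.31, beside 1.09 over the whole lists. HOXD went the other way, with 29.4 and 18.9 kb, a ratio of 0.641. Only 48.2% of the HOXD bases of C4-2B were covered in C4-2BER. The direction turned once weak peaks were left out. Kept to fold enrichments from 3 upwards the ratio was 1.15, and kept to −log10 q-values from 5 upwards it was 1.19.

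Base composition moved with the covered length. In 1000-bp bins, the median GC content of bins covered by H3K27ac in C4-2BER only was 50.6% in HOXA, 50% in HOXB and 51.4% in HOXC, beside 57.7%, 57.3% and 55.2% for bins covered in both cell lines. For H3K18ac these values were 46.3%, 47.5% and 47.3% beside 55.5%, 54.9% and 54.9%. In HOXD the bins covered by H3K18ac in C4-2B only had a median of 59.8%. That lay below the 65.0% of HOXD bins covered in both and above the 44.4% of the HOXD window as a whole. The H3K27ac bins covered in C4-2BER only also lay above their whole windows, which had 48.8% in HOXA, 48.6% in HOXB and 48.9% in HOXC. The H3K18ac bins covered in C4-2BER only lay below those windows in HOXA, HOXB and HOXC. Bins covered in C4-2BER only were thus poorer in GC than bins covered in both, and the part of base composition in the covered length was not tested.

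**Figure D4:**
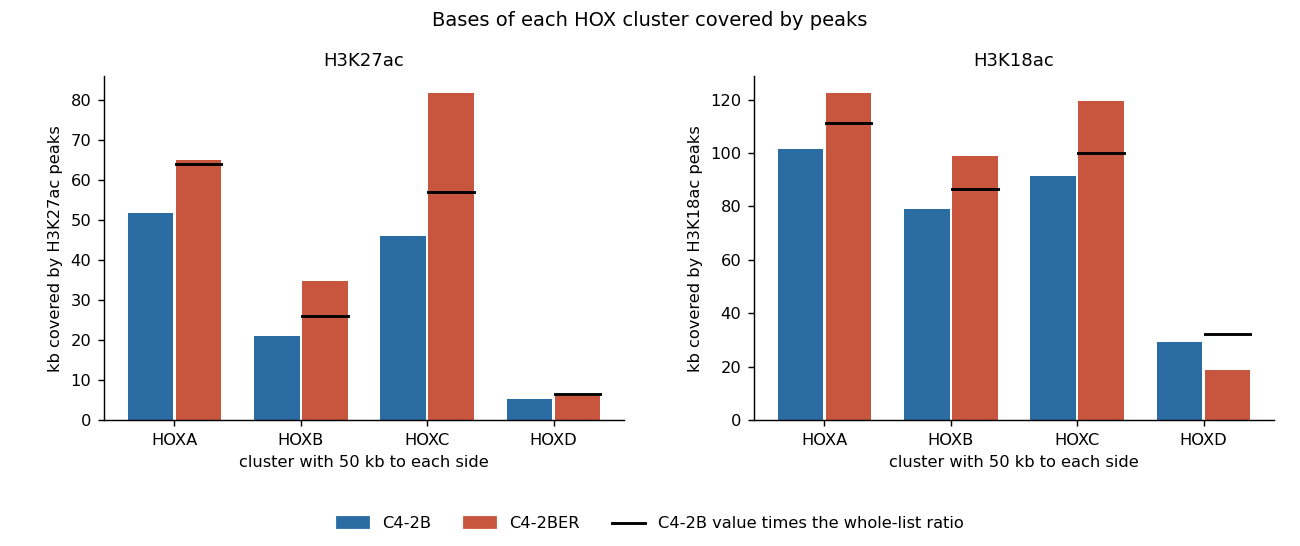
Length in kb covered by H3K27ac peaks (left) and H3K18ac peaks (right) in each HOX cluster with 50 kb to each side. Bars are the merged lists of C4-2B (blue) and C4-2BER (red), with no error since each is 1 list, and the black line is the C4-2B length times the ratio of the whole lists. C4-2BER stands above the line in HOXB and HOXC for H3K27ac, and below it in HOXD for H3K18ac.

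H3K27ac lay almost wholly within H3K18ac. Of the H3K27ac bases of each cluster, 94.7% to 97.7% were covered by H3K18ac in C4-2B and 95.4% to 99.9% in C4-2BER. The reverse share told the clusters apart. Of the H3K18ac bases of C4-2B, H3K27ac covered 49.2% in HOXA, 25.4% in HOXB, 48.9% in HOXC and 17.95% in HOXD. In C4-2BER the shares were 52.8%, 34.8%, 68.5% and 30.7%, higher in each cluster. Over the whole lists the covered length also rose more for H3K27ac (a ratio of 1.24) than for H3K18ac (1.09). The whole-list share was not computed, so the rise cannot be called particular to the HOX clusters.

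Noncoding genes of the clusters followed the peaks they lie under. Of 25 lncRNA genes with a TSS inside a cluster, 18 had an H3K27ac peak in C4-2B and 17 in C4-2BER, and 25 and 23 had H3K18ac. The shares over all lncRNA genes were not computed, so these counts and the calls below have no background beside them. HOTAIR, a lncRNA of the HOXC cluster known to act with Polycomb on the HOXD cluster, had an H3K27ac fold enrichment of 2.31 in C4-2B and 5.95 in C4-2BER, the same peaks as HOXC11. HOXC-AS3 had 2.25 and 5.95, with HOXC10. HOTTIP, which lies next to HOXA13 and is known to help keep posterior HOXA genes active, had 14.9 and 13.3. The other lncRNA genes inside the clusters that were called higher were HOXB-AS2, with no H3K27ac peak in C4-2B and 3.99 in C4-2BER, and ENSG00000253508, between HOXA11 and HOXA13, with 2.44 and 13.3 and with H3K18ac of 3.03 and 6.63. HOXA-AS2 (2.31 in C4-2B) and HOXB-AS4 (18.4) were called lower in H3K27ac, with no peak in C4-2BER. HOXB-AS4 shares its C4-2B peak with HOXB9, and that peak ended farther from its TSS in C4-2BER. HOXD-AS2 and ENSG00000272729 lost weak H3K18ac peaks of 2.44 and 2.34.

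The clusters also hold 7 microRNA genes, and members of the miR-196 family, which target HOX transcripts, lie in 3 of them. The mature sequences are shown because the family is spread over clusters that differ in acetylation, with the seed (bases 2 to 8), which pairs with targets, in capitals (RefSeq, GRCh38.p14).
hsa-miR-196b-5p (MIR196B, HOXA, chr7:27169528-27169549, minus strand): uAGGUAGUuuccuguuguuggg
hsa-miR-196a-5p (MIR196A2, HOXC, chr12:53991762-53991783, plus strand; also MIR196A1, HOXB, chr17:48632532-48632553, minus strand): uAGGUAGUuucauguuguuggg
hsa-miR-10a-5p (MIR10A, HOXB, chr17:48579904-48579926, minus strand): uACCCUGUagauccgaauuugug
hsa-miR-615-3p (MIR615, HOXC, chr12:54034010-54034031, plus strand): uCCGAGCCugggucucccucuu
The miR-196 sequences share 1 seed, and the other 2 have seeds of their own. The hairpin of MIR196B lay under H3K27ac of 19.0 in C4-2B and 13.3 in C4-2BER, the peaks of HOXA10. That of MIR196A2 had no H3K27ac peak in C4-2B and 5.95 in C4-2BER, within the domain of HOXC10 and HOXC11, with H3K18ac of 4.08 and 4.48. The C4-2B domain ended just before that hairpin, and within 1000 bp of its start C4-2B had H3K27ac of 3.72, so this is a shift of a peak edge and MIR196A2 was not called higher. No peak of either mark covered the hairpin of MIR196A1, which had weak H3K18ac within 1000 bp of its start, at 2.95 and 3.37. The hairpin of MIR615, in HOXC5, had H3K27ac of 19.6 and 7.97. MIR10A, between HOXB4 and HOXB3 by TSS, had no peak of any list within 1000 bp of its start. The H3K18ac peaks at HOXB4 ended just outside that window, at chr17:48578899 in C4-2B and chr17:48578934 in C4-2BER. MIR10B, near HOXD4, had an H3K18ac peak of 2.49 within 1000 bp of its start in C4-2B alone.

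Most regulators and partners of HOX genes carried acetylation in both cell lines, with few calls. Of 27 Polycomb genes, 27 had a peak in each of the 4 lists, and 4 (14.8%) were called lower in H3K27ac, beside 8.01% of all genes. Centred on the median of all genes, 0 of the 27 were called. The 4 were AEBP2 (36.9 in C4-2B and 17.3 in C4-2BER), CBX6 (27.7 and 12.5), EZH1 (17.9 and 7.89) and RING1 (28.2 and 13.7). None of the 11 trithorax and H3K27 demethylase genes, which oppose Polycomb, was called in either mark, and each had peaks in all 4 lists. Of the 9 TALE cofactors, the PBX, MEIS and PKNOX proteins that bind DNA with HOX proteins, MEIS3 was called lower in H3K27ac, with 2.68 in C4-2B and no peak in C4-2BER. Of 15 retinoic acid and caudal genes, which set HOX expression in the embryo, 7 had H3K27ac in each cell line. The shares over all genes were 69.1% in C4-2B and 69.6% in C4-2BER. CYP26A1, which degrades retinoic acid, had 4.02 in C4-2BER only, RARB, a retinoic acid receptor, had 2.14 in C4-2B only, and CYP26C1 lost an H3K18ac peak of 2.28. The median log2 ratio of H3K27ac was −0.67 over the Polycomb genes, −0.62 over the trithorax genes, −0.50 over the TALE cofactors and −0.46 over the retinoic acid and caudal genes, near the −0.51 of all genes.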

How the data were processed

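H3K27ac and H3K18ac ChIP-Seq was done in C4-2B and C4-2BER. Each mark had 2 libraries in each line, which also had 1 input library. Per the submitters' processing notes, reads were handled with bcl2fastq 2.17, Trimmomatic 0.33, Bowtie2 2.2.3, Picard and deepTools. The authors merged the libraries of a group and deposited 1 macs2 broad peak list for each, on GRCh38. The deposited fold enrichment is the average over a broad peak, and the deposited −log10 p-values and −log10 q-values belong to the same peaks. The macs2 version, its thresholds and the use of the input were not given in the sources used here. Merging neighbouring enriched bases into 1 broad peak lowers the average where a peak is wide, so fold enrichments of narrow and wide peaks were set beside covered lengths.

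The highest fold enrichment within 1000 bp of each canonical TSS (GENCODE 44) and the bases covered in each cluster with 50 kb to each side were computed with Python 3.11.15, numpy 2.4.6, pandas 2.3.3 and scipy 1.17.1, and checked on simulated peaks. Calls used a ratio of 2. Full values were given for members called in either mark, next to the ratio of 2 or highest in a cluster and list. Other genes were named where called or beside an acetylated stretch, but not every called gene was named. Left out were the 2 other protein-coding genes inside the clusters, both called higher in H3K27ac, and called lncRNA genes of the flanks. HOTTIP, KLK3, ENO2, SYP and the microRNA genes that were not called were named after their values were seen. Members and lists were chosen with earlier results of these data known. Other windows, ratios, peak thresholds, flanks and scalings were tried. The values of some genes, 1 of the members included, are not reported here, and counts and medians over members cover all 38. Promoter and microRNA sequences were those of RefSeq (GRCh38.p14).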

Additional observations from a re-analysis of the deposited data

How the results depend on the processing

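Results were recomputed under 11 settings and 1 added after seeing the data (lists trimmed to equal covered length), each for the results it applied to. Log2 ratios of single members were recomputed with other TSS windows, all annotated TSSs, both peak thresholds, the mean fold enrichment by length and centring. Of 373 such ratios, for members with peaks in both cell lines, 370 kept their side of the ratio of 2. HOXC5 (−0.79) and HOXA9 (1.09) when centred on all genes and HOXD12 (0.25) with a 2000-bp window did not. Ratios not called could turn in sign, as for HOXC4 in H3K18ac (−0.87) and HOXA9 in H3K27ac (−0.52) with all TSSs. Calls by presence moved as well: HOXD12 was lower with 500 bp, HOXA5 higher with 2000 bp, and HOXC4 lost under 4 settings. Centring the Polycomb genes, also added, left 0 of 4 lower calls. HOX genes higher in H3K18ac numbered 3 for −log10 q-values from 5 upwards, 3 for fold enrichments from 3 upwards and 2 where the peak covers the TSS, and those lower 0, 0, 6 at a ratio of 1.5 and 5 with trimmed lists. HOX genes higher in H3K27ac numbered 6 with 2000 bp, and those lower 1 with 500 bp, 1 when centred and 6 at a ratio of 1.5. Centring turned the median log2 ratios to 0.44 (H3K27ac) and 0.17 (H3K18ac). The covered HOXD ratio for H3K18ac turned to 1.19 (q-value) and 1.15 (fold), and for H3K27ac it was 1.72 (q-value). By q-value, H3K18ac covered 67.0 kb of HOXA in C4-2B, 42.6 and 56.2 kb of HOXB and 10.4 and 12.3 kb of HOXD in C4-2B and C4-2BER, and H3K27ac 3.08 kb of HOXD in C4-2B. By fold, H3K18ac covered 44.3 and 56.2 kb of HOXB and 10.7 and 12.3 kb of HOXD. Without flanks it covered 65.0 and 74.0 kb of HOXA and 62.7 kb of HOXB in C4-2BER. Fewer peaks or bases entered under these settings, and the cause of the other changes was not tested. No paired analysis was possible because the lists are merged over libraries, which also means that no library could be left out. Depth is unknown, so a missing peak does not show a missing mark.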

Other observations

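Some H3K27ac peaks in the flanks lay away from any HOX start site. Beyond HOXB9, a peak at chr17:48671443-48672498 within LINC02086 reached a fold enrichment of 7.41 (C4-2BER), where the C4-2B peak had 2.73. It lay 45085 bp from the TSS of HOXB9. Between HOXB1 and the outer flank, a peak at chr17:48521113-48524502 had 4.73, beside 6.85 for the C4-2B peak there, and was wider (3390 bp beside 1463 bp).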
